A study of Mus musculus with 10 samples.

Results

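The nuclear-encoded genes of oxidative phosphorylation were followed across 10 bulk RNA libraries of sorted mouse thymic epithelial cells (TEC). Members were chosen by gene symbol, as genes whose symbols begin with Nduf and a subunit letter and number, Sdha to Sdhd, genes beginning with Uqcr, Cox4 to Cox8 or Atp5, and a total of 30 or more raw counts over the libraries. Of the 15790 genes counted, 81 matched the symbols, 0 of those fell under the minimum, and 1, Ndufa4l2, was left out by the rule, which gave 80 members. They were divided into 34 members of complex I, 4 of complex II, 8 of complex III, 17 of complex IV with Ndufa4 counted there, and 17 of complex V. The symbols also take in Atp5s and Atp5sl, which are not subunits of ATP synthase itself, and leaving them out moved no result on the summed share by more than the spread between libraries.

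The study profiled TEC of mice carrying the del AR3 change of Foxn1, of del AR3 heterozygotes, and of nu/nu mice, in which Foxn1 is not functional. Foxn1 is the forkhead transcription factor that TEC require for their differentiation. AR3_mut (Foxn1 del AR3 mut) and AR3_het (Foxn1 del AR3 het) were C57BL/6 mice aged 4.5 weeks, with 3 libraries each. The nude group (nu/nu) was of the ICR strain, aged 5 weeks, with 4 libraries. After digestion of the thymi with Liberase TH plus DNase, total TEC were sorted, and RNA caught on Dynabeads was counted at its 3′ ends by bulk MARS-seq. The control group carries 1 mutant allele, so no library came from an unaltered Foxn1 locus. Strain and age changed together with the nude genotype, and their parts in any difference from nude cannot be told apart from it. The labels leave it unsaid whether each library was a different mouse, and the p-values therefore reflect the spread among libraries, which may be technical.

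Oxidative phosphorylation passes electrons from NADH (complex I) and succinate (complex II) through complex III to oxygen at complex IV, cytochrome c oxidase, and uses the resulting proton gradient to make ATP at complex V. Most subunits are encoded in the nucleus and are expressed in nearly all cells, with a smaller set encoded in mitochondrial DNA. Several subunits of complex IV exist as alternative isoforms, a widely expressed form and a form typical of heart and skeletal muscle, lung or testis, so the isoform in use can differ between tissues while the complex is present in all of them. Genes of the mitochondrial DNA were not analysed here.

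Libraries held 1056066 to 4175851 counts, and AR3_mut 3 was the shallowest. Foxn1 itself read 317 to 382 CPM (counts scaled to a common, TMM-adjusted library size) in the AR3_het libraries and 0.553 to 1.99 CPM in those of the mutants. The groups also differed in markers of other cells, given as summed shares of all counts. All 8 endothelial markers were higher in AR3_mut than in AR3_het, at 0.400 to 0.5002% against 0.0157 to 0.0207%, with 0.0925 to 0.173% in nude. All 7 tested fibroblast markers were higher in both mutants, at 0.274 to 0.580% in AR3_mut and 0.440 to 1.25% in nude against 0.0177 to 0.0370% in AR3_het. General epithelial markers took 0.930 to 1.26% in AR3_het and 0.176 to 0.624% in the mutants. Cortical TEC markers took 2.57 to 3.14% in AR3_het and 0.108 to 0.153% in the mutants, and medullary TEC markers took 1.41 to 1.88% against 0.0187 to 0.128%. Dissociation stress genes took 0.288 to 0.441% in AR3_het and 1.498 to 2.595% in the mutants. The part of these differences in the results on the members was not tested. In bulk libraries, fewer cells of a type and less RNA per cell cannot be told apart.

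Together the members took less of the library in both mutants than in AR3_het, but for nude this depended on the denominator. As a share of all counts, the 80 members took 2.12, 2.06 and 2.01% in AR3_mut 1 to 3, 2.92, 2.88 and 2.97% in AR3_het 1 to 3 and 2.23, 2.05, 2.60 and 2.17% in nude 1 to 4. The means were 2.06 ± 0.0553% in AR3_mut (SD, n = 3), 2.92 ± 0.0432% in AR3_het (SD, n = 3) and 2.26 ± 0.234% in nude (SD, n = 4), and AR3_het did not overlap either mutant. TMM scaling, which sets the size of a library by the bulk of its genes, enlarged the AR3_het libraries by factors of 1.13 to 1.26 and reduced those of the mutants by factors of 0.840 to 0.971. Relative to the TMM-adjusted size, the members took 2.15 ± 0.0537% in AR3_mut, 2.49 ± 0.103% in AR3_het and 2.497 ± 0.247% in nude. On that scale AR3_mut (2.11 to 2.21%) still lay below AR3_het (2.38 to 2.58%), while nude (2.19 to 2.73%) spanned the whole of AR3_het. Among genes tested that are in none of the endothelial, fibroblast, pericyte, thymocyte and stress marker lists, a denominator added after the data were seen, the shares were 2.15 ± 0.0547%, 2.96 ± 0.0456% and 2.34 ± 0.239%. That denominator leaves out only the listed markers and keeps all other transcripts of those cells, so it cannot remove their part.

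**Figure D1:**
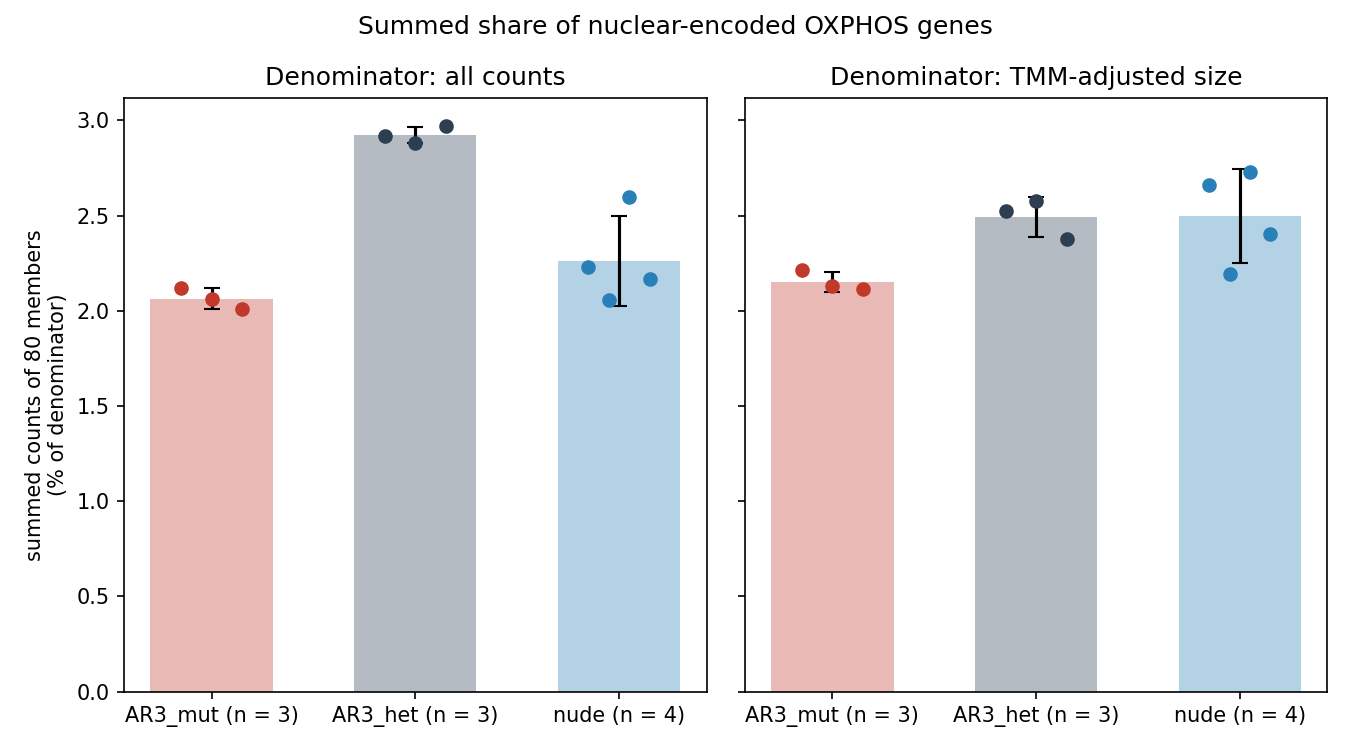
Summed counts of the 80 members as a percentage of all counts (left) and of the TMM-adjusted library size (right), for each library (points) with the group mean (bar) and SD (line). AR3_mut lay below AR3_het on both scales, at 2.01 to 2.12% and 2.11 to 2.21%, whereas nude lay below AR3_het only on the left, at 2.05 to 2.60%.

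The proportions of the complexes in the member counts differed by small amounts, and in some cases the libraries of 2 groups did not overlap. The proportions depend on one another, and their differences were not tested. Complex I held 33.2 ± 1.54% of all member counts in AR3_mut, 32.8 ± 0.576% in AR3_het and 34.02 ± 0.551% in nude. Complex V held 29.0 ± 1.03%, 30.2 ± 0.278% and 28.4 ± 0.493%, and was lower in each nude library than in each AR3_het library. Complex IV held 24.9 ± 1.13%, 23.2 ± 0.301% and 24.5 ± 0.724%, and was higher in each library of either mutant than in AR3_het. The gap was narrow, from 23.5% in the highest AR3_het library to 23.7% in the lowest AR3_mut and 23.6% in the lowest nude library. The shares of complex III were 9.44 ± 0.479%, 10.04 ± 0.233% and 9.52 ± 0.498%, and those of complex II were 3.42 ± 0.139%, 3.75 ± 0.0625% and 3.60 ± 0.384%. Both were lower in each AR3_mut library than in each AR3_het library, and overlapped AR3_het in nude.

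Gene by gene, edgeR's quasi-likelihood test was applied to the 12912 genes that passed the filter on low counts, with a Benjamini-Hochberg adjusted p under 0.05 as the call. Of the members, 79 were tested, and Cox6a2 was not because its counts were too low. Against AR3_het, 2 members rose in AR3_mut and 12 fell, which is 17.7% of the members, where 41.8% of all genes tested were called. In each direction, 2.53% of the members rose where 21.2% of all genes did, and 15.2% fell where 20.6% of all genes did. The median log2 fold change of the members was −0.27, against −0.04 over all genes, and 62 of 79 were negative. In nude, 7 members rose against AR3_het and 6 fell, 16.5% of the members where 47.9% of all genes were called. There the share of members that rose was 8.86% against a background of 23.7%, and the share that fell was 7.59% against 24.2%. Their median was −0.04, against −0.03 over all genes, with 43 of 79 negative. Between AR3_mut and nude, 1 member was higher in AR3_mut and 2 were lower, 3.80% of the members where 11.3% of all genes were called, 7.58% higher and 3.71% lower. The median of the members there was −0.24, against 0 over all genes, and 64 of 79 were negative. Without any 1 of the AR3_het libraries, or without nude 4, 4 members in place of 7 were called higher in nude. All 3 comparisons share groups, so their values for the members are not independent.

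Most members differed by small amounts. Of the 79, 63 had a log2 fold change under 0.5 in size in AR3_mut against AR3_het and 68 in nude against AR3_het, which is 79.7% and 86.1% of the members, where 40.3% and 39.7% of all genes did. The libraries of AR3_mut and AR3_het did not overlap for 38 of all 80 members, untested Cox6a2 among them, and those of nude and AR3_het for 26. Over all genes tested, 55.0% and 53.8% did not overlap. Only Cox4i2, Cox6b2, Cox8b and Ndufa11 reached a log2 fold change of 1 in size in AR3_mut against AR3_het. In nude, the members at or past that size were the same 4 genes with Cox7a1 and Ndufa12. Scaled to library totals without TMM, the median of all genes moved by −0.29 in AR3_mut against AR3_het and by −0.38 in nude against AR3_het, and the member calls became 2 higher and 40 lower in AR3_mut, and 3 higher and 32 lower in nude. The share of higher among all calls went from 50.7 to 34.7% in AR3_mut and from 49.5 to 30.6% in nude. The distance of the members' median from that of all genes was −0.23 in AR3_mut under both scalings, and −0.01 with TMM and −0.02 without it in nude.

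**Figure D2:**
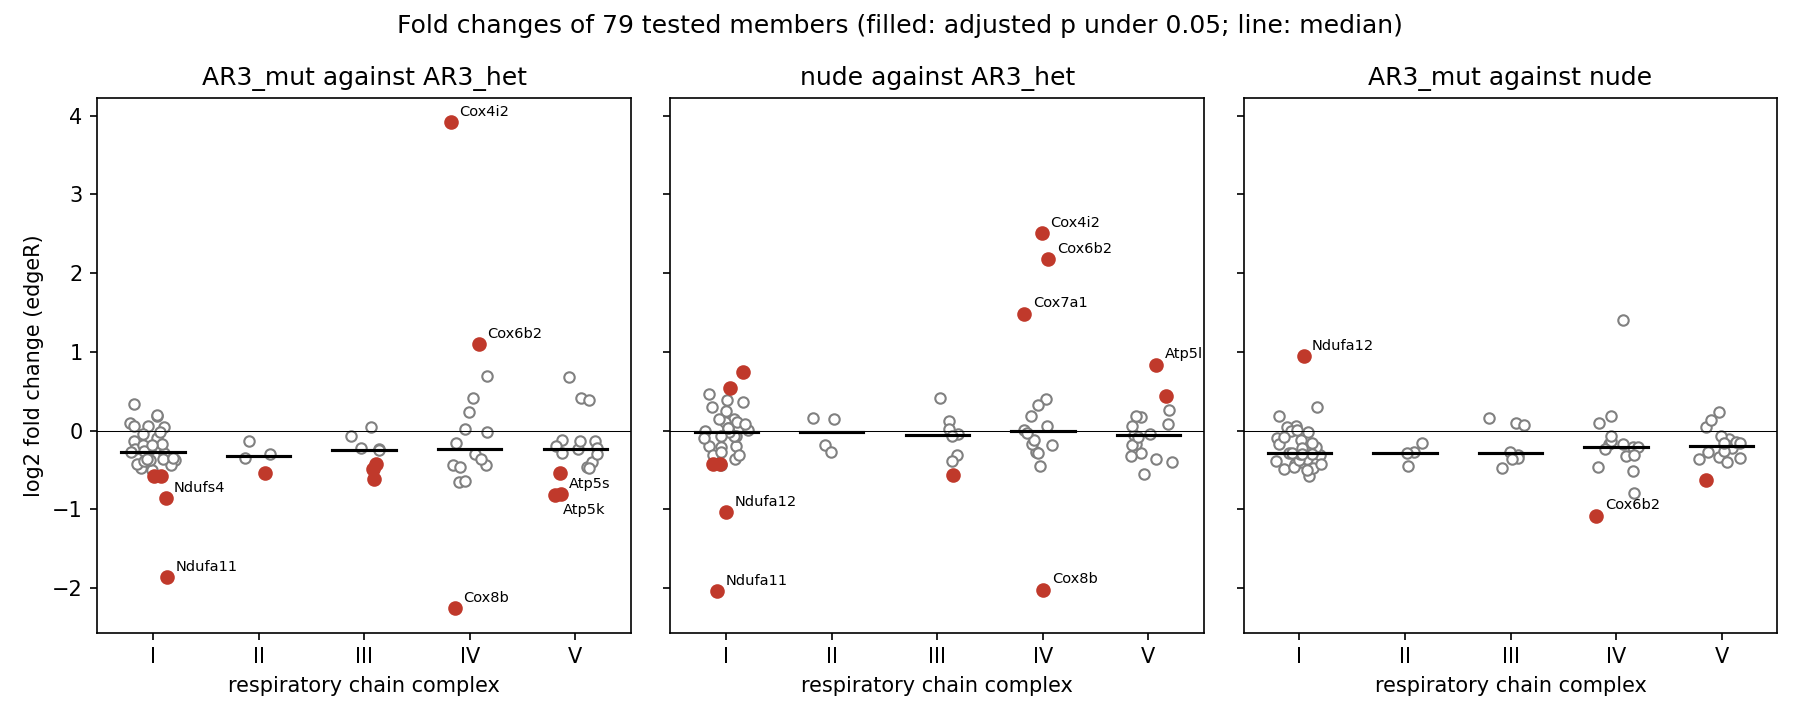
Log2 fold changes (edgeR, TMM scaling) of the 79 tested members by complex in the 3 comparisons, with called members filled and the median of each complex as a line. The medians of all 5 complexes lay between −0.32 and −0.23 in AR3_mut against AR3_het and between −0.06 and −0.01 in nude against AR3_het, and the member farthest from 0 in each comparison was Cox4i2.

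The largest called change of each comparison was in a tissue-type isoform of cytochrome c oxidase. Cox4i2 is the alternative form of Cox4i1, known from lung and induced by low oxygen, and subunit 4 is a site where the enzyme is regulated. The gene lies at chr2:152754173-152765037, plus strand (GRCm38, GENCODE M21). Cox4i2 read 35.2, 31.3 and 54.7 CPM in AR3_mut 1 to 3, 1.45, 4.55 and 2.15 CPM in AR3_het 1 to 3 and 5.06, 4.95, 25.4 and 25.8 CPM in nude 1 to 4. Every AR3_mut library was above every nude library, the AR3_het libraries were lowest, and nude was split between a low pair (1 and 2) and a high pair (3 and 4). Cox4i2 rose from 2.71 ± 1.63 CPM in AR3_het to 40.4 ± 12.6 CPM in AR3_mut (log2 fold change 3.92, SE 0.71, edgeR adjusted p = 0.000959) and to 15.3 ± 11.9 CPM in nude (2.51, SE 0.68, edgeR adjusted p = 0.0094). The difference between AR3_mut and nude, a log2 fold change of 1.40, had an edgeR adjusted p of 0.14. Its widely expressed partner Cox4i1 was at 1093, 1106 and 1259 CPM in AR3_mut, AR3_het and nude, and was called in none of the comparisons (adjusted p from 0.409 to 0.952).

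As a share of the counts of both Cox4 isoforms, Cox4i2 took 2.98, 3.02 and 4.63% in AR3_mut 1 to 3, 0.129, 0.369 and 0.222% in AR3_het 1 to 3 and 0.384, 0.478, 1.65 and 2.14% in nude 1 to 4. These shares came from 7 to 90 counts of Cox4i2, so that the 95% Wilson interval ran from 3.57 to 5.97% in AR3_mut 3 and from 0.0623 to 0.265% in AR3_het 1, counting error only. The means were 3.54 ± 0.939% in AR3_mut, 0.240 ± 0.121% in AR3_het and 1.16 ± 0.870% in nude, and no pair of groups overlapped. Nude and AR3_het were barely apart, with nude 1 at 0.384% and AR3_het 2 at 0.369%. The Wilson intervals of these 2 libraries, 0.229 to 0.644% and 0.224 to 0.608%, were nearly the same. Only 3′ ends were counted, and counts were not divided by transcript length. As summed shares, markers of pericytes and smooth muscle, endothelium and adipocytes were, like Cox4i2, highest in AR3_mut. In nude these shares were higher in libraries 3 and 4 than in 1 and 2. All 10 markers of pericytes and smooth muscle were higher in AR3_mut than in AR3_het and 6 of 10 were higher in nude. Together they took 0.207 to 0.280% in AR3_mut and 0.0451 to 0.0508% in AR3_het. In nude they took 0.0340% and 0.0444% in the 2 libraries where Cox4i2 was low, and 0.124% and 0.0911% in nude 3 and 4. The 2 low values were under every AR3_het library, where Cox4i2 was lowest. Endothelial markers took 0.0969, 0.0925, 0.160 and 0.173% in nude 1 to 4, between the ranges of AR3_het and AR3_mut given above. Adipocyte markers took 0.0897, 0.0440, 0.205 and 0.185% there. Their ranges were 0.359 to 0.524% in AR3_mut and 0.0362 to 0.0492% in AR3_het. The adipocyte markers did not move together. Of 7 tested, 3 were called higher than AR3_het in each mutant and 4 were not called. In AR3_mut against nude only Fabp4 was called, with 4 positive, 3 negative and a median log2 fold change of 0.06. Of the 10 pericyte and smooth muscle markers, Rgs5, Tagln, Myh11 and Des were not called in nude against AR3_het. Abcc9, a channel subunit of pericytes, read 6.14, 3.30, 71.4 and 19.2 CPM in nude 1 to 4. It was called higher than AR3_het in both mutants, but was not called in AR3_mut against nude. The part of any of these cell types, or of the stress and hypoxia responses, in the level of Cox4i2 was not tested.

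**Figure D3:**
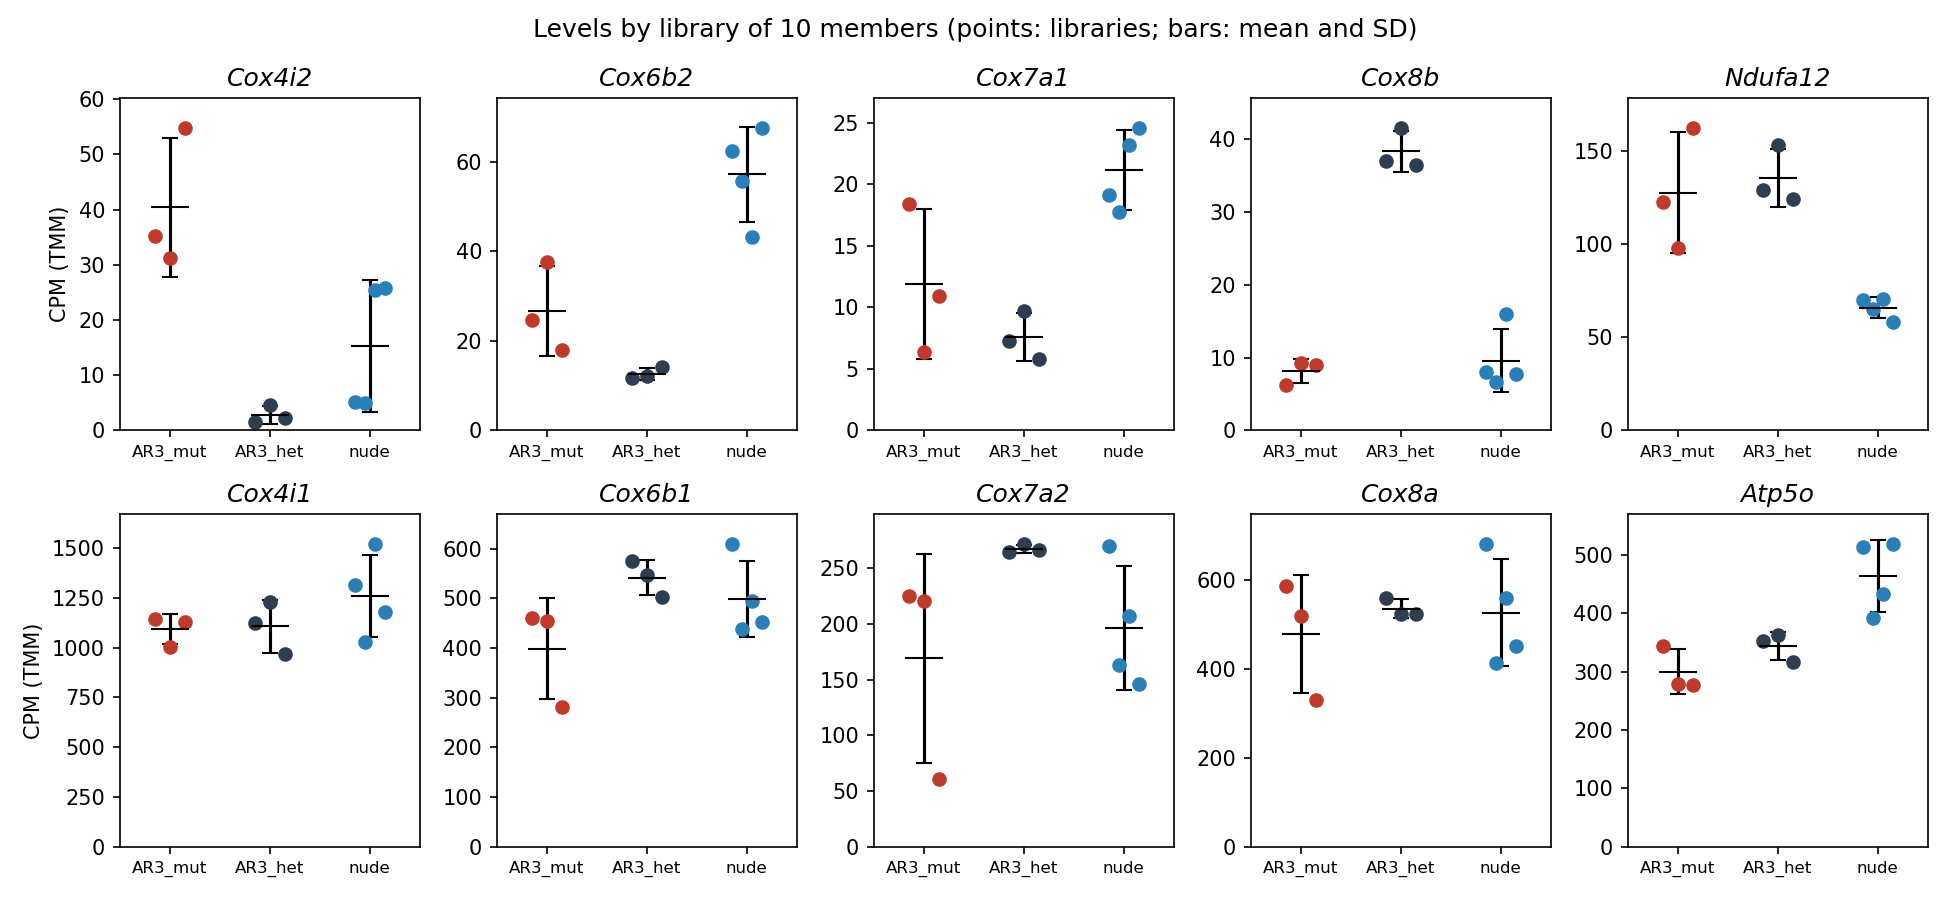
CPM (TMM-adjusted) of 10 members in each library (points), with the mean and SD of each group. The upper row holds Cox4i2, Cox6b2, Cox7a1, Cox8b and Ndufa12, and the lower row holds the widely expressed partners and Atp5o. Cox8b was at 36.5 CPM or above in AR3_het and at 16.0 CPM or below elsewhere, while the Cox8a levels of the 3 groups overlapped.

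Cox8b fell in both mutants. It encodes the subunit 8 isoform that rodents use in heart, skeletal muscle and brown fat, and Cox8a is the form of most other tissues. The gene lies at chr7:140898945-140900446, minus strand (GRCm38). It read 6.26, 9.26 and 8.96 CPM in AR3_mut 1 to 3, 37.0, 41.5 and 36.5 CPM in AR3_het 1 to 3 and 7.95, 6.60, 16.0 and 7.78 CPM in nude 1 to 4. All 3 AR3_het libraries were far above all mutant libraries, and nude 3 was the highest of the mutants. Cox8b fell from 38.3 ± 2.77 CPM in AR3_het to 8.16 ± 1.65 CPM in AR3_mut (log2 fold change −2.26, SE 0.34, edgeR adjusted p = 0.000258) and to 9.59 ± 4.34 CPM in nude (−2.02, SE 0.29, edgeR adjusted p = 0.000146). Its share of the Cox8 counts was 1.82 ± 0.798% in AR3_mut, 6.69 ± 0.593% in AR3_het and 1.80 ± 0.695% in nude. Cox8a had log2 fold changes of −0.16 and −0.02 against AR3_het (edgeR adjusted p = 0.635 and 0.939).

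Cox6a2, the heart and muscle form of subunit 6a, had 1, 2 and 0 counts in AR3_mut 1 to 3, 23, 9 and 7 in AR3_het 1 to 3, and 6, 0, 8 and 8 in nude 1 to 4. With the counts of each group pooled, its log2 ratio of AR3_mut to AR3_het was −2.43 with a 95% counting interval from −4.76 to −0.77. Such an interval covers counting error only and leaves out the spread between libraries. For nude against AR3_het the ratio was −0.39 (−1.21 to 0.40), which was not detectable at this depth. Its partner Cox6a1, the most abundant member of complex IV, was at 1338 ± 250.3 CPM, 1135 ± 112 CPM and 1503 ± 89.6 CPM in AR3_mut, AR3_het and nude and was not called. In nude against AR3_het its log2 fold change was 0.41 with an edgeR adjusted p of 0.0703. There it was called higher by the DESeq2 Wald test, by limma-voom and without AR3_mut 3. The 3′ end of Cox6a1 matches 1 other gene, and the split of its counts is uncertain. Markers of striated muscle, a tissue that uses Cox8b, Cox6a2 and Cox7a1, took 0.00675 to 0.0115% of counts in AR3_het, 0.000975 to 0.00162% in AR3_mut and 0.000316 to 0.000454% in nude. Nude 3, highest of the mutant libraries in Cox8b, had the lowest share of muscle markers, 0.000316%. Cox7a1, described below, rose in nude, where these markers were lowest. Of the 8 muscle markers, 5 were tested, of which 3 were lower in AR3_mut and all 5 in nude. Acta1 and Ttn were at 0 counts in all 4 nude libraries, and Tnni2 was at 0 in all 3 AR3_mut libraries and at 7.45, 6.97 and 9.87 CPM in AR3_het. Adipocyte markers, which include genes of brown fat, took 0.359 to 0.524% of counts in AR3_mut, 0.0440 to 0.205% in nude and 0.0362 to 0.0492% in AR3_het, so that nude and AR3_het overlapped. Of the 7 tested, 3 (Plin1, Fabp4 and Ucp1) were higher in each mutant and 0 lower. Muscle genes are among the tissue genes that medullary TEC transcribe, and the part of that, or of muscle or fat cells, in Cox8b was not tested.

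Cox6b2, the testis form of subunit 6b, rose in both mutants, and nude reached the higher level. The gene lies at chr7:4751792-4753094, minus strand (GRCm38). It read 24.6, 37.6 and 17.9 CPM in AR3_mut 1 to 3, 11.6, 12.1 and 14.2 CPM in AR3_het 1 to 3 and 62.5, 55.7, 43.1 and 67.6 CPM in nude 1 to 4. The 3 groups did not overlap, with AR3_het lowest and nude highest. Against AR3_het, where the mean was 12.6 ± 1.36 CPM, Cox6b2 rose to 26.7 ± 10.02 CPM in AR3_mut (log2 fold change 1.099, SE 0.27, edgeR adjusted p = 0.00701) and to 57.2 ± 10.6 CPM in nude (2.18, SE 0.26, edgeR adjusted p = 3.46e-05). Without AR3_mut 2, its log2 fold change in AR3_mut was 0.72 with an edgeR adjusted p of 0.0560. AR3_mut was below nude by a log2 fold change of −1.08, SE 0.25, edgeR adjusted p = 0.0188, a call lost without AR3_mut 1, AR3_mut 3 or nude 1. In shares of the Cox6b counts, Cox6b2 took 5.09, 7.64 and 5.98% in AR3_mut 1 to 3, 1.98, 2.17 and 2.74% in AR3_het 1 to 3 and 9.32, 11.3, 8.02 and 12.97% in nude 1 to 4, and again no pair of groups overlapped. Cox6b1, the form of other tissues, was at 399 ± 101 CPM, 542 ± 36.1 CPM and 499 ± 76.9 CPM and was not called.

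Cox7a1, the heart and muscle form of subunit 7a, rose in nude. It read 18.4, 6.37 and 10.9 CPM in AR3_mut 1 to 3, 7.24, 9.70 and 5.79 CPM in AR3_het 1 to 3 and 19.1, 17.7, 23.2 and 24.6 CPM in nude 1 to 4. All nude libraries were above all AR3_het libraries, while AR3_mut ran from the level of AR3_het to that of nude. Nude was above AR3_het by a log2 fold change of 1.49, SE 0.34, edgeR adjusted p = 0.00347 by edgeR, and AR3_mut by 0.70, SE 0.37, edgeR adjusted p = 0.157. The form of other tissues, Cox7a2, was at 169 ± 93.9 CPM, 268 ± 3.41 CPM and 197 ± 55.4 CPM. AR3_mut 3 had 60.7 CPM of Cox7a2, against 226 and 221 CPM in the other AR3_mut libraries, so the Cox7a1 share there (15.3%, 95% Wilson interval 8.75 to 25.3%) rests on a low partner and 72 counts of both. The related Cox7a2l was at 262 ± 29.2 CPM, 197 ± 6.97 CPM and 246 ± 35.2 CPM, with edgeR adjusted p of 0.0686 and 0.115 against AR3_het.

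Over the 6 isoform families and 3 comparisons, 18 differences in share were tested by the two-sided exact permutation test. With 3 libraries against 3 that exact test cannot go below p = 0.1, and with 3 against 4 not below 0.0571, so no difference could pass 0.05. The pairs that did not overlap reached these limits, with adjusted p of 0.18 and 0.171 over the 18. They were Cox4i2 and Cox6b2 in all 3 comparisons, Cox8b in both comparisons with AR3_het, Cox7a1 in nude against AR3_het and Cox6a2 in AR3_mut against AR3_het. Subunit c of ATP synthase, whose 3 genes Atp5g1, Atp5g2 and Atp5g3 encode the same mature protein, behaved otherwise. Atp5g1 took 17.8 ± 1.23% in AR3_mut, 18.8 ± 1.12% in AR3_het and 15.8 ± 3.82% in nude of their counts, with overlap in every pair. Atp5g3 was the most abundant of them, at 791 ± 182 CPM, 871 ± 82.3 CPM and 994 ± 99.9 CPM. The 3′ ends of Atp5g1 and Atp5g2 match 1 and 2 other genes.

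Of the tissue-type pairs of complex IV, RefSeq promoters of both forms were at hand for Cox6b1 and Cox6b2, Cox7a1 and Cox7a2, and Cox8a and Cox8b. The 250 bases upstream of each start are shown for the Cox8 and Cox6b pairs (GRCm38.p6, all on the minus strand, written 5′ to 3′), as examples of a pair with a form that fell in both mutants and a pair with a form that rose in both. Capitals mark a match to the GABPA motif CCGGAAG on either strand. Cox8a lies at chr19:7217617-7217866, Cox8b at chr7:140900447-140900696, Cox6b1 at chr7:30626115-30626364 and Cox6b2 at chr7:4753095-4753344.
Cox8a: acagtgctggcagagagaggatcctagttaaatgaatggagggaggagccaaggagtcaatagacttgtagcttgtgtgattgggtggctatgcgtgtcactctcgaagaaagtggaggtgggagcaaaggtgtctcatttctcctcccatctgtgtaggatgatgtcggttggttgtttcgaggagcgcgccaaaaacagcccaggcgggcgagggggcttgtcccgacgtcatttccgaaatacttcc
Cox8b: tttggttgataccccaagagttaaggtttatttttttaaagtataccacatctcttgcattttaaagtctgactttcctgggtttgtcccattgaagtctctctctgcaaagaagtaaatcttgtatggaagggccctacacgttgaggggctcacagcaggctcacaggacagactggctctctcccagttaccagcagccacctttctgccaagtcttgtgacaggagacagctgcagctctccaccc
Cox6b1: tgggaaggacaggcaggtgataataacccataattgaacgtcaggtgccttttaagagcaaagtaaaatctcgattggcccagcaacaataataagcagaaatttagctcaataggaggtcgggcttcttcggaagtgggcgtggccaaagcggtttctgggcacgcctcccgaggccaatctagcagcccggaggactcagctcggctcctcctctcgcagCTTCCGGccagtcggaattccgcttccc
Cox6b2: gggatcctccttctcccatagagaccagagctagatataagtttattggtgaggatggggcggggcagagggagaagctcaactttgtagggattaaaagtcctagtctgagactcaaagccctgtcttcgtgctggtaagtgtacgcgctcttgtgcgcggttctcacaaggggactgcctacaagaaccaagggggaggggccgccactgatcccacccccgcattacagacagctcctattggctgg
Promoters of 64 of the 80 members were matched in the RefSeq table, and 3 motifs were searched on both strands over 300 bases, the 250 before and the 50 after the start. They were the NRF1 motif (GCGCA and GCGC with any 1 base between them), GABPA as above and the YY1 motif AAGATGG, for factors known to act on respiratory chain genes. The NRF1 motif was in 23.4% of the member promoters, in 9.66% of the promoters of genes tested and in 4.78% of all 27025 promoters in the table. GABPA was in 23.4%, 16.8% and 9.12%, and YY1 in 14.1%, 6.86% and 6.48%. The median GC content was 57.2% in the members and 60.7% in the genes tested. No match to any of the 3 was found in 30 of the 64 member windows, among them those of Cox8b, Cox6b2, Cox7a1 and Cox7a2. The window of Cox8a held 2 GABPA matches, neither of them wholly in the 250 bases shown, and that of Cox6b1 held 1. Atp5k, which fell in AR3_mut, held 1 GABPA and 1 NRF1 match, and the NRF1 match is in capitals in its 250 bases at chr5:108434400-108434649 on the minus strand.
Atp5k: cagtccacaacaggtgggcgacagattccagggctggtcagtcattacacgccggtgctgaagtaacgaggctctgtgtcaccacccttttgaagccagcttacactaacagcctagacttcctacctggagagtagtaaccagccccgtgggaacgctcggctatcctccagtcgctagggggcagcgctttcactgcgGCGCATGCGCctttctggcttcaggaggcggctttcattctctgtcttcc

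In complex I, which takes electrons from NADH, 4 of 34 members fell in AR3_mut and 0 rose, while in nude 4 fell and 2 rose. The 11.8% that fell in each lay under the 20.6 and 24.2% of all genes tested. The most abundant, Ndufa13, was at 508 ± 53.0 CPM, 555 ± 15.1 CPM and 712 ± 75.1 CPM in AR3_mut, AR3_het and nude, and was called in none of the comparisons by edgeR. Ndufs4, an accessory subunit of the NADH-oxidising arm, read 64.9, 77.6 and 56.7 CPM in AR3_mut 1 to 3, 122, 117 and 123 CPM in AR3_het 1 to 3 and 98.6, 76.3, 82.4 and 101 CPM in nude 1 to 4. All AR3_het libraries were above all others. It fell in AR3_mut (log2 fold change −0.85, SE 0.17, edgeR adjusted p = 0.00206) and, at the edge of the threshold, in nude (−0.43, SE 0.16, edgeR adjusted p = 0.0425, a call lost in 8 of 18 alternatives). Ndufv2, an iron-sulfur subunit of the same arm, fell from 238 ± 13.3 CPM to 159.9 ± 8.91 CPM in AR3_mut (−0.58, SE 0.14, edgeR adjusted p = 0.006), and its nude libraries lay between, at 188 to 204 CPM.

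Ndufa12 separated nude from both other groups. This accessory subunit read 123, 97.8 and 162 CPM in AR3_mut 1 to 3, 129, 153 and 124 CPM in AR3_het 1 to 3 and 70.1, 65.2, 70.2 and 58.1 CPM in nude 1 to 4. The 4 nude libraries were the 4 lowest, and AR3_mut overlapped AR3_het. Nude was below AR3_het by a log2 fold change of −1.04, SE 0.18, edgeR adjusted p = 0.000576 by edgeR, AR3_mut was above nude by 0.95, SE 0.18, edgeR adjusted p = 0.00815, and both calls held in all 18 alternatives of scaling, filter, model, block or left-out library. Since nude alone is ICR, strain and genotype cannot be told apart here. Ndufa1, an X-linked subunit of the membrane arm, read 259.7, 218 and 202 CPM in AR3_mut 1 to 3, 189, 186 and 166 CPM in AR3_het 1 to 3 and 341, 257, 331 and 273 CPM in nude 1 to 4. It rose in nude (0.74, SE 0.16, edgeR adjusted p = 0.00292), and every library of AR3_mut was also above AR3_het (0.33, SE 0.17, edgeR adjusted p = 0.147). The rise of Ndufa1 in nude was not called with library totals (0.36, edgeR adjusted p = 0.0781). Ndufb11, also X-linked, rose in nude (0.54, SE 0.20, edgeR adjusted p = 0.0419), a call lost in 9 of 18 alternatives, and its 3′ end matches 1 other gene. The other called members, named after their values were seen, were Ndufa11, a subunit of the membrane arm that fell in both mutants at 1 to 27 counts per library, Ndufa9, which fell in AR3_mut, and Ndufb10, which fell in nude. The call of Ndufa11 in AR3_mut was lost in 8 of 17 alternatives, that of Ndufa9 in 4 of 18 and that of Ndufb10 in 9 of 18.

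Complex II, which oxidises succinate, has 4 members. Sdhb, its iron-sulfur subunit, read 267, 236 and 211 CPM in AR3_mut 1 to 3, 348, 349 and 346 CPM in AR3_het 1 to 3 and 296, 271, 324 and 264 CPM in nude 1 to 4. All AR3_het libraries were above all mutant libraries. Sdhb fell in AR3_mut (log2 fold change −0.54, SE 0.16, edgeR adjusted p = 0.0156) and was not called in nude (−0.27, SE 0.15, edgeR adjusted p = 0.152). Named because they complete the complex, the flavoprotein Sdha and the membrane anchors Sdhc and Sdhd had log2 fold changes of −0.34, −0.13 and −0.30 in AR3_mut against AR3_het and none was called.

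In complex III, which passes electrons to cytochrome c, 3 of 8 members fell in AR3_mut and 1 in nude, where 20.6 and 24.2% of all genes did. Uqcr10, a small subunit, read 334, 302 and 276 CPM in AR3_mut 1 to 3, 467, 480.4 and 453 CPM in AR3_het 1 to 3 and 479.8, 347, 355 and 323 CPM in nude 1 to 4. AR3_mut lay below AR3_het in every library, and nude 1 alone of the nude libraries reached the AR3_het level. Uqcr10 fell in AR3_mut (log2 fold change −0.62, SE 0.18, edgeR adjusted p = 0.0168), and without AR3_mut 3 the value was −0.55 with an edgeR adjusted p of 0.0540. Uqcrc2, a core protein, read 165, 119 and 125.4 CPM in AR3_mut 1 to 3, 192, 184 and 199 CPM in AR3_het 1 to 3 and 136, 111, 139.9 and 133 CPM in nude 1 to 4. It fell in AR3_mut (−0.49, SE 0.17, edgeR adjusted p = 0.0387), a call lost in 6 of 18 alternatives, and in nude (−0.56, SE 0.16, edgeR adjusted p = 0.0118), a call that held in all 18. AR3_het was above both mutants, which overlapped each other. Uqcrq, the most abundant member of the complex, fell in AR3_mut to 374 ± 40.2 CPM from 499.9 ± 24.6 CPM (−0.42, SE 0.15, edgeR adjusted p = 0.0448), a call lost in 12 of 18 alternatives.

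Complex V, the ATP synthase, had 3 of 17 members lower in AR3_mut and 2 higher in nude. These are 17.6 and 11.8%, under the 20.6% lower and 23.7% higher of all genes. Its most abundant member Atp5b, the catalytic beta subunit, was at 1078 ± 126 CPM, 1272 ± 23.1 CPM and 1042 ± 179 CPM and was not called. Atp5k, the membrane subunit e, read 173, 229 and 114 CPM in AR3_mut 1 to 3, 299.8, 298 and 320.3 CPM in AR3_het 1 to 3 and 259, 194, 199 and 183 CPM in nude 1 to 4. Each AR3_het library was above each mutant library. Atp5k fell in AR3_mut (log2 fold change −0.82, SE 0.23, edgeR adjusted p = 0.0145) and had an adjusted p just over the threshold in nude (−0.55, SE 0.22, edgeR adjusted p = 0.0533). Atp5f1, subunit b of the stator and named after its values were seen, fell in AR3_mut from 544 ± 50.8 CPM to 374 ± 14.5 CPM (−0.54, SE 0.15, edgeR adjusted p = 0.0138), and Atp5s, known as coupling factor B, from 18.7 ± 1.82 CPM to 10.5 ± 1.58 CPM (−0.80, SE 0.25, edgeR adjusted p = 0.0236). The call of Atp5s was lost in 3 of 18 alternatives.

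Atp5o, the stator subunit that joins the catalytic head, was the member of complex V that set nude apart. It read 345, 279 and 277 CPM in AR3_mut 1 to 3, 352, 362 and 317 CPM in AR3_het 1 to 3 and 513, 393, 433 and 518 CPM in nude 1 to 4. Each nude library was above each library of the other groups. Nude was above AR3_het by a log2 fold change of 0.43, SE 0.16, edgeR adjusted p = 0.0464 by edgeR, and AR3_mut was below nude by −0.63, SE 0.17, edgeR adjusted p = 0.0314. These calls were lost in 11 and 7 of 18 alternatives, and with library totals the value against AR3_het was 0.05. Atp5l, subunit g, had 8.64 CPM in AR3_het and 15.4 CPM in nude (0.84, SE 0.32, edgeR adjusted p = 0.0488), with overlap between the groups and a call lost in 11 of 17 alternatives. The 3′ ends of Atp5k, Atp5l and Atp5o match 2, 2 and 1 other genes (60 or more of the last 200 bases at 95% identity), and the split of their counts is uncertain.

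The members varied more among the AR3_mut libraries than among those of AR3_het. The median coefficient of variation of a member was 17.99% in AR3_mut, 9.06% in AR3_het and 14.3% in nude, against 19.6, 12.5 and 18.1% over the 5114 genes with a mean of 100 or more counts. Of the 71 members with 1000 or more counts in all, 8 were in AR3_mut 3, the shallowest library, under 0.5 times the mean of AR3_mut 1 and 2. The same count was 0 for AR3_mut 1 and 2 and 0 or 1 for each AR3_het and nude library, each against the others of its group. Named after their values were seen, they were Uqcrb, Cox6c, Cox7b, Cox7a2, Uqcrh, Ndufa3, Ndufa5 and Ndufb3, at ratios of 0.0993, 0.176, 0.196, 0.272, 0.379, 0.382, 0.440 and 0.466. Uqcrb read 72.3, 208 and 13.9 CPM in AR3_mut 1 to 3, a 14.96-fold range, and 69.7 to 180 CPM in AR3_het. The 3′ ends of Uqcrb and Cox6c match 4 and 1 other genes, and the split of their counts is uncertain, while those of the others match none. The median ratio was 0.887 for members whose coding transcripts were at or under the median length of 681.5 bases and 1.04 for longer ones. Neither these ratios nor the count under 0.5 were computed for genes other than the members. Whether the low values are particular to the members was therefore not tested. None of these 8 was called in any comparison. Without AR3_mut 3, the members' median in AR3_mut against AR3_het was −0.21, with 2 higher and 8 lower, of which 7 were among the 12 called with it.

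**Figure D4:**
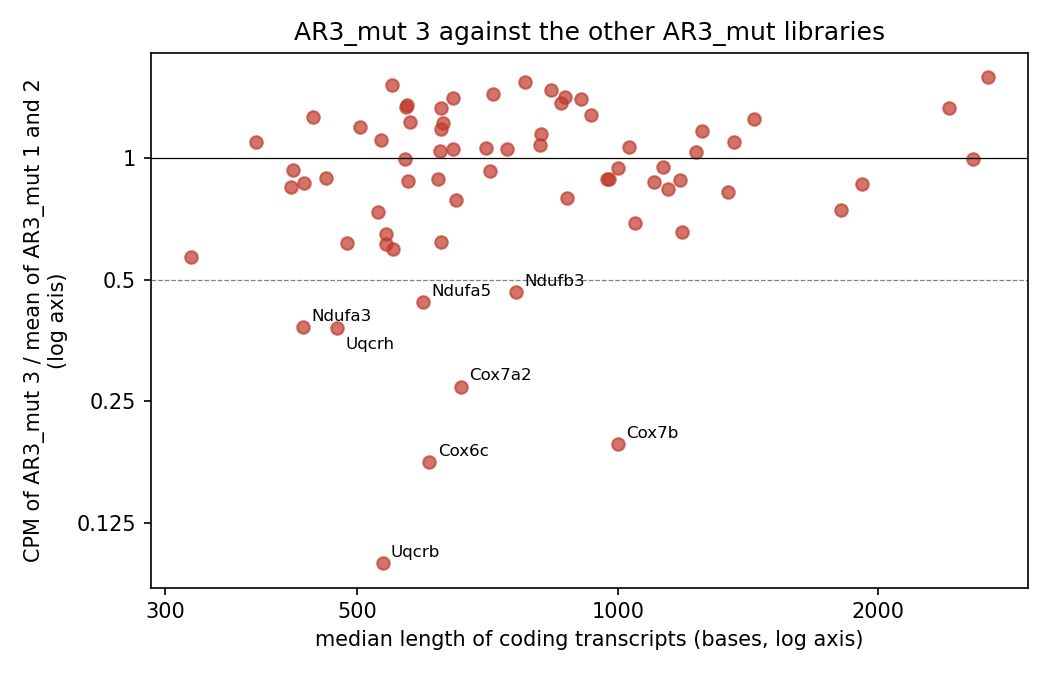
CPM of AR3_mut 3 divided by the mean of AR3_mut 1 and 2, against median coding transcript length (both axes logarithmic), for members with 1000 or more counts and an annotated length. The 8 named members lie under the dashed line at a ratio of 0.5, down to 0.0993 for Uqcrb, and the others lie above it.

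Genes that work with the respiratory chain but lie outside the symbols gave a mixed account. Ndufa4l2, a homologue of Ndufa4 induced by low oxygen and known from pericytes, read 150.2, 170.2 and 255 CPM in AR3_mut 1 to 3, 1.86, 4.85 and 4.72 CPM in AR3_het 1 to 3 and 21.3, 21.4, 91.8 and 86.4 CPM in nude 1 to 4. As with Cox4i2, AR3_mut was highest, AR3_het lowest, and nude 3 and 4 lay above nude 1 and 2. It rose in AR3_mut (log2 fold change 5.66, SE 0.68, edgeR adjusted p = 5.55e-05) and nude (3.86, SE 0.64, edgeR adjusted p = 0.000411), and AR3_mut was above nude by 1.80, SE 0.50, edgeR adjusted p = 0.0402. Atpif1, the inhibitor of ATP synthase, fell in both, from 736 ± 40.7 CPM to 442 ± 34.9 CPM and 439.5 ± 18.7 CPM (−0.74, edgeR adjusted p = 0.00208, and −0.74, edgeR adjusted p = 0.000886). The other 3 genes of this list were not called in any comparison.

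Of 42 assembly factors tested, which build the complexes, 12 fell and 1 rose in AR3_mut against AR3_het (median −0.47), 10 fell and 2 rose in nude (median −0.13), and 3 were lower in AR3_mut than in nude. The shares that fell were 28.6% in AR3_mut, where 20.6% of all genes fell, and 23.8% in nude, close to the 24.2% of all genes. With library totals 24 fell and 0 rose in AR3_mut, and 20 fell and 2 rose in nude. Sdhaf1, needed for the iron-sulfur centres of complex II, read 85.8 CPM in AR3_het and fell to 30.2 CPM in AR3_mut (−1.51, SE 0.26, edgeR adjusted p = 0.000652) and 32.5 CPM in nude (−1.40, SE 0.23, edgeR adjusted p = 0.000378). Sco2, a copper chaperone of complex IV, rose in AR3_mut (0.87, SE 0.30, edgeR adjusted p = 0.0344), a call not made with library totals. Ndufaf1, an assembly factor of complex I, rose in nude from 18.6 ± 1.73 CPM to 47.4 ± 18.9 CPM (1.35, SE 0.30, edgeR adjusted p = 0.00276) and was higher there than in AR3_mut. Mitochondrial ribosomal proteins, which translate the mitochondrially encoded subunits, had 18 lower and 1 higher of 66 in AR3_mut (median −0.39) and 11 lower and 3 higher in nude (median −0.20). The shares lower were 27.3 and 16.7%, above the background in AR3_mut and under it in nude, and library totals gave 44 lower and 0 higher, and 38 lower and 1 higher. Mrpl38 fell in both (−1.52 and −1.27) and Mrps6 rose in both (0.78 and 1.15), though in AR3_mut not with library totals. Cytosolic ribosomal proteins had 11 higher and 1 lower of 79 in AR3_mut (median 0.35) and 15 higher and 3 lower in nude (median 0.25), or 13.9 and 19.0% higher where 21.2 and 23.7% of all genes were. With library totals 5 were higher and 1 lower in AR3_mut (median 0.06), and 4 higher and 6 lower in nude (median −0.14). The largest change among them was that of Rpl29, which fell in nude (−5.67, SE 0.35, edgeR adjusted p = 4.85e-07) and had a log2 fold change of 0.43 in AR3_mut (edgeR adjusted p = 0.309).

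Genes of fuel pathways were called in both directions, against a background of 21.2% higher and 20.6% lower in AR3_mut and 23.7% higher and 24.2% lower in nude. In glycolysis, 5 of 16 tested genes rose in AR3_mut and 2 fell (median 0.58), and 8 rose in nude and 2 fell (median 0.82). With library totals both mutants had 4 higher and 2 lower. Pfkl, the liver form of phosphofructokinase, rose in AR3_mut (1.16, SE 0.30, edgeR adjusted p = 0.00889), and Slc16a3, a lactate exporter, rose in nude (1.73, SE 0.43, edgeR adjusted p = 0.0059). Ldhb, the lactate dehydrogenase subunit of oxidative tissues, fell from 463 ± 73.9 CPM to 127 ± 44.3 CPM in AR3_mut and 159 ± 63.4 CPM in nude (−1.86 and −1.55, edgeR adjusted p = 0.000744 and 0.000976). Of 17 tested genes of pyruvate dehydrogenase and the citric acid cycle, 3 rose and 2 fell in AR3_mut and 3 rose and 0 fell in nude. Library totals turned this to 2 higher and 7 lower in AR3_mut and 2 higher and 5 lower in nude. Pdha1, a subunit of pyruvate dehydrogenase, rose in both (1.24 and 1.89). Of 16 genes of fatty acid oxidation, 4 rose and 4 fell in AR3_mut and 6 rose and 4 fell in nude. These are 25% in each direction in AR3_mut and 37.5% higher and 25% lower in nude, near the background but for the higher genes in nude. With library totals 2 rose and 4 fell in AR3_mut, and 3 rose and 4 fell in nude. Acaa2, the mitochondrial thiolase, rose to 182 ± 21.3 CPM in AR3_mut and 491 ± 97.4 CPM in nude from 88.8 ± 16.4 CPM, whereas Cpt1a, which admits fatty acids to mitochondria, fell in both (−0.75 and −0.84).

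Coenzyme Q synthesis had 1 of 12 genes higher and 1 lower in each mutant, Coq10b (2.96 and 2.74) and Coq9 (−0.46 and −0.47). That is 8.33% in each direction. Of all genes tested, 21.2% were higher and 20.6% lower in AR3_mut, and 23.7% higher and 24.2% lower in nude. Among 15 carriers and channels of the mitochondrial membranes, 2 rose and 2 fell in AR3_mut, and 6 rose and 2 fell in nude. These are 13.3% in each direction in AR3_mut, and 40.0% higher and 13.3% lower in nude. With library totals the counts became 1 and 5 in AR3_mut, and 2 and 4 in nude. Slc25a3, the phosphate carrier that feeds ATP synthase, rose in both (0.50 and 0.63), calls not made with library totals, and Slc25a13, an aspartate and glutamate carrier, fell in both, from 74.1 ± 10.6 CPM to 4.63 ± 1.07 CPM and 5.60 ± 2.04 CPM. In the hypoxia list, 8 of 18 rose and 1 fell in AR3_mut and 9 rose and 2 fell in nude. With library totals 6 rose and 4 fell in AR3_mut, and 6 rose and 2 fell in nude. That list also holds Cox4i2 and Ndufa4l2, which were among those that rose. Adm, another hypoxia-induced gene, fell in both (−0.98 and −1.91).

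Regulators of mitochondrial gene expression were mostly not called, with 1 higher and 2 lower of 16 in each mutant, or 1 higher and 5 and 7 lower with library totals. The TMM counts are 6.25% higher and 12.5% lower. Of all genes tested, 21.2% were higher and 20.6% lower in AR3_mut, and 23.7% higher and 24.2% lower in nude. Ppargc1b, a coactivator of respiratory chain genes, read 6.26, 9.84 and 2.99 CPM in AR3_mut 1 to 3, 17.6, 14.5 and 18.2 CPM in AR3_het 1 to 3 and 3.97, 4.54, 7.19 and 6.55 CPM in nude 1 to 4. It fell in AR3_mut (log2 fold change −1.34, SE 0.38, edgeR adjusted p = 0.0144) and nude (−1.61, SE 0.34, edgeR adjusted p = 0.00228), and the AR3_het libraries were above all others. Pprc1, a related coactivator, rose in both (1.78 and 1.71, edgeR adjusted p = 1.12e-05 and 7.81e-06). Esrra, a nuclear receptor that acts with these coactivators, fell in nude (−0.41, SE 0.16, edgeR adjusted p = 0.0462) and had a log2 fold change of −0.37 in AR3_mut (edgeR adjusted p = 0.0994). Nrf1, Gabpa and Tfam were not called in any comparison, and Ppargc1a was too low to be tested, at 0 to 4.42 CPM.

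**Figure D5:**
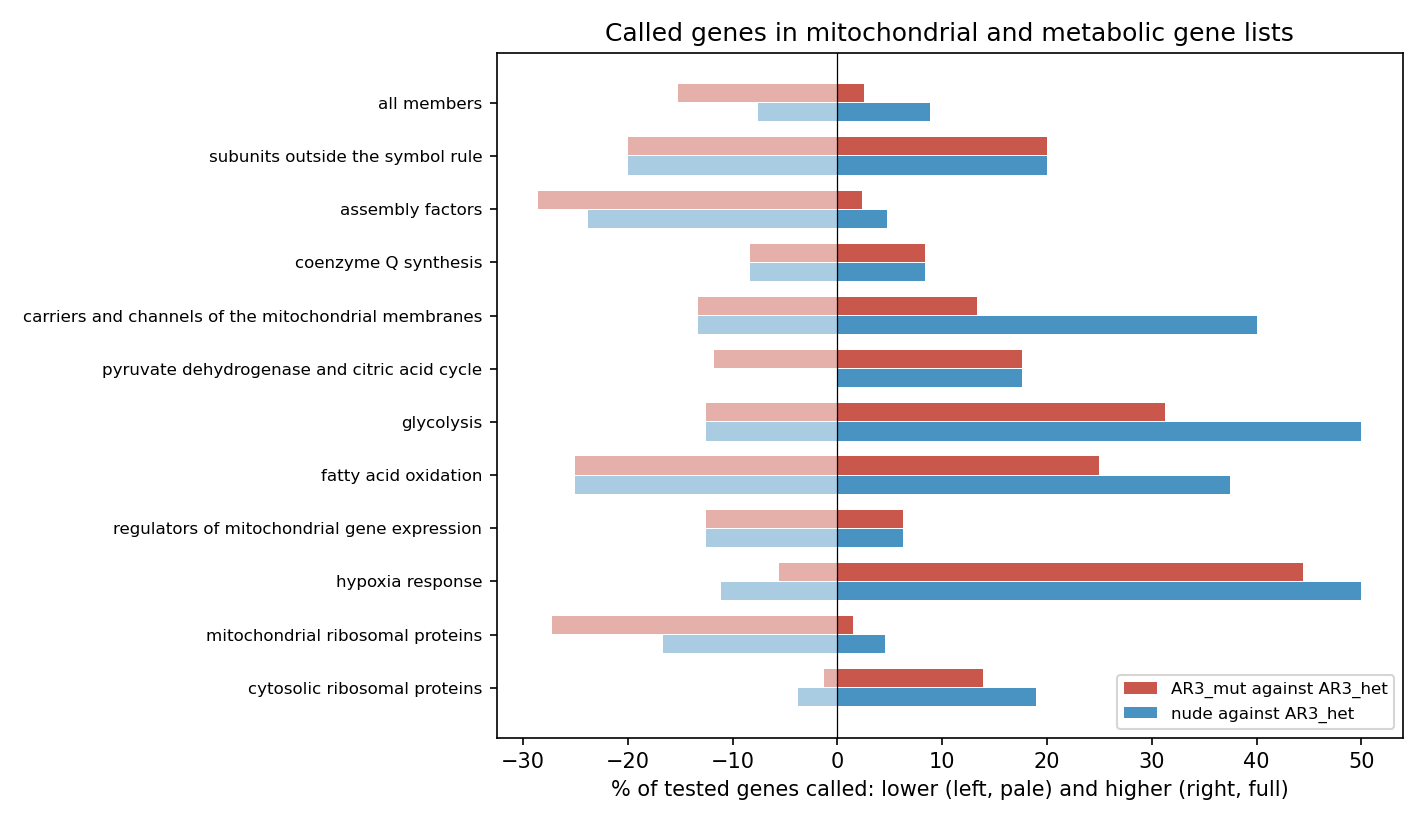
Percentage of the tested genes of each list called higher (right) and lower (left) in AR3_mut against AR3_het (red) and nude against AR3_het (blue), by edgeR with adjusted p under 0.05. Over all genes tested, 21.2 and 23.7% were higher and 20.6 and 24.2% lower, and the members (top) stayed under these percentages on both sides.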

How the data were processed

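Raw counts per gene in 10 bulk MARS-seq libraries of sorted TEC were used as deposited by the authors. Per the submitters' processing notes, the tools were bcl2fastq, cutadapt, STAR 2.4.2a, HTSeq and DESeq2 on mm10, with no statement there of how molecular identifiers were treated. The 20 other per-library columns, in other units, were not used. Libraries held 1056066 to 4175851 counts. Groups followed the labels. With edgeR 4.0.16 in R 4.3.3, all 10 libraries were fitted by the quasi-likelihood method with TMM scaling, after filterByExpr (minimum count 10, minimum total 15), which left 12912 of 15790 genes. P-values were adjusted by Benjamini-Hochberg over all genes tested, and the SE of a log2 fold change was its size divided by the square root of F. The script was tested on simulated counts. Alternatives used DESeq2 1.42.0, limma 3.58.1, other scalings and filters, a replicate block, the 2 groups alone and each library left out. The summed share was given without a test.

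Within families, isoform shares were compared by exact permutation tests (scipy 1.17.1), with 95% Wilson intervals for single libraries that cover counting error only. Gene positions came from GENCODE M21 (GRCm38) and promoters from RefSeq (GRCm38.p6). Near copies of the last 200 transcript bases were found with BLAST 2.17.0. Named members were the tissue-type isoforms, the most abundant member of each complex and, for each complex, comparison and direction, the 2 called members with the largest fold change at 10 CPM or more, and for other lists the largest at 20 CPM or more. The members, lists and rules were chosen with earlier results of these data known. Same-numbered libraries of different groups had correlations of −0.31 to 0.157 in their deviations from the group means, so the numbers were not taken to pair the libraries. The labels do not name the sort markers.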

Additional observations from a re-analysis of the deposited data

Results flagged for a closer look

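In nude, the group with 4 libraries, 1 library stood apart from the other 3 by Dixon's test for 2 of 36 values examined, where chance gives about 1 in 20. Cox8b read 16.0 CPM in nude 3, against 6.60 to 7.95 CPM in the others. Atp5g2, a gene of subunit c whose 3′ end matches 2 other genes, read 19.87 CPM in nude 1, against 5.36 to 7.37 CPM in the others.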

How the results depend on the processing

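Of 30 called differences of single members, 15 held under every alternative that could be fitted, 15 were lost under at least 1, and 0 changed sign. With library totals, 40 members were lower in AR3_mut against AR3_het, and 3 were higher and 32 lower in nude against AR3_het. The DESeq2 Wald test gave 19 lower in AR3_mut and 11 in nude against AR3_het, and 11 lower in AR3_mut against nude. Higher members in nude against AR3_het numbered 4 with DESeq2 size factors and 4 with the stricter filter (50 counts in 3 libraries). In AR3_mut against nude, limma-voom gave 2 higher and 4 lower, and a fit of the 2 groups alone gave 1 lower. Leaving out 1 library gave 8 to 11 lower in AR3_mut, 4 to 9 higher and 4 to 8 lower in nude against AR3_het, and 0 to 2 lower in AR3_mut against nude. In nude, 4 were higher without any 1 of AR3_het 1, 2, 3 or nude 4, and 9 without AR3_mut 3. In AR3_mut, 8 were lower without AR3_mut 3 or AR3_het 3. Between the mutants, 1 was lower without AR3_mut 1, AR3_mut 3, AR3_het 1 or nude 4, and 0 without nude 1. The replicate block, for numbers that do not pair the libraries, gave 2 higher and 8 lower in AR3_mut, 4 higher and 4 lower in nude, and 1 higher and 0 lower between the mutants. The summed share of AR3_mut minus AR3_het, −0.860 percentage points of all counts, was −0.340 on the TMM-adjusted size, −1.03 without the 50 most abundant other genes and −0.937 without cytosolic ribosomal protein genes. That of nude minus AR3_het went from −0.662 to 0.00426 on the TMM-adjusted size. The Cox7a1 share of AR3_mut minus nude ran from −5.07 without AR3_mut 3 to 1.17 without AR3_mut 2, and the Cox8b share from −0.397 without AR3_mut 3 to 0.398 without AR3_mut 1, with −0.198, −0.0596 and −0.0195 also reversed. Apart from the named constructions, the cause was not tested. Depth limits the members at a few counts, such as Cox6a2 and Ndufa11, since 3 counts are 0.718 to 2.84 CPM.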
